A study of Mus musculus with 1 sample.

Results

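The 9 genes Hmgcs1, Mvd, Idi1, Fdps, Fdft1, Sqle, Lss, Cyp51 and Dhcr7 encode enzymes of cholesterol synthesis, and the poly(A) tails of their transcripts are described here. They were chosen by gene symbol, through the annotation of the gene identifiers in the table, and the rule itself uses no measured value, although the list was drawn up with earlier results of these data known. Transcripts were found for 8 of the 9, 1192 in all among 701976 nuclear transcripts. These 8 were among the 7146 nuclear genes with at least 10 transcripts, which are called tested genes below, out of 12816 nuclear genes with any. Lss, with 28 transcripts, had the fewest of the 8, and Fdps had 0. The tails were measured by PAIso-seq, which copies whole transcripts with their tails into circular cDNA and reads them on the PacBio platform. One group was available, 24h-EpiLCs of the ICR mouse strain and wild type in genotype, that is, embryonic stem cells (ESCs) 24 h on their way to epiblast-like cells (EpiLCs). The cells were grown on Matrigel in N2B27 medium with activin A, bFGF and KSR. Its 1 sample held 2 replicates, told apart by barcode and numbered here by barcode, and nothing in the labels says whether they came from separate cultures. The Cnot8 KO cells of the study were not analysed here, so no genotype was compared.

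Cholesterol is built from acetyl-CoA. Enzymes of the mevalonate pathway make small isoprenoid units, these are joined into squalene, and squalene is closed into lanosterol and trimmed to cholesterol. The transcription factor Srebf2 is known for switching on nearly all of these genes when membranes lack sterol. The poly(A) tail is added when an mRNA is made and is shortened in the cytoplasm by deadenylases such as the Ccr4-Not complex, and a tail of few A bases can receive U at its end before decay.

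Replicate 1 held 246316 nuclear transcripts and replicate 2 held 455660, after a minimum of 7 sequencing passes per read. The median nuclear tail was 91 nt in each. All 5 markers of pluripotent cells were found, with 2382 transcripts, and all 6 of formative cells, with 1096. Naïve markers took 600 transcripts, most of them of Zfp42 (129 in replicate 1 and 372 in replicate 2), and Prdm14 was at 0. Markers of fibroblasts, endoderm, mesoderm and trophoblast took 4, 1, 0 and 1 transcripts. Pluripotent markers summed to 1457 transcripts in replicate 1 and 925 in replicate 2, a difference carried by Dppa5a (1143 against 419). Pou5f1, Sox2, Utf1 and Dppa4 each had more transcripts in replicate 2, but that library was deeper. Relative to all nuclear transcripts of each replicate, Pou5f1, Utf1 and Dppa4 were lower in replicate 2, as Dppa5a was, and Sox2 was higher. Naïve markers had 165 and 435. Whether this difference between the libraries had a part in the values below was not tested.

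Single tails are shown first, as examples of short tails and of tails that end in T. They were picked for such features, and only 50 of 1192 enzyme tails ended in T. Each is a read of an enzyme transcript from its first to its last tail base, 5′ to 3′, with non-A bases in capitals and T standing for U of the RNA. Apart from the Dhcr7 tails, each is the shortest or the longest of its gene among certain tails of at most 100 nt. These had to end in T or hold a run of non-A bases. The Dhcr7 tails are some of its 9 tails that ended in T.
Hmgcs1, 12 nt: aaaaaaaaaaaT
Hmgcs1, 93 nt: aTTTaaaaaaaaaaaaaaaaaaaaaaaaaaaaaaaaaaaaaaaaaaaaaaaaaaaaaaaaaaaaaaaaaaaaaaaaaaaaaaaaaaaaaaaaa
Mvd, 36 nt: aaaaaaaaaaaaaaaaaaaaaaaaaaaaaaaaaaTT
Idi1, 17 nt: aaaaaaaaaaaaaaaaT
Fdft1, 28 nt: aaaaaaaaaaaaaaaaaaaaaaaaTTTa
Lss, 93 nt: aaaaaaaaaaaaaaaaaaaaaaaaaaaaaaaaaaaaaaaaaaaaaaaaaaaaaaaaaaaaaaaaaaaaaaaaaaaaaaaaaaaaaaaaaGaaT
Cyp51, 17 nt: aaaaaaaaaaaaaaTTT
Dhcr7, 21 nt: aaaaaaaaaaaaaaaaaaaTT
Dhcr7, 27 nt: aaaaaaaaaaaaaaaaaaaaaaaaaTT
Dhcr7, 32 nt: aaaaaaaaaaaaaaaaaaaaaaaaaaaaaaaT
Dhcr7, 36 nt: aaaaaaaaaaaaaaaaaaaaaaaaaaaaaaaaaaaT

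Most of these tails were pure A with 1 to 3 T at the very end, while the Hmgcs1 tail of 93 nt carried its T next to the body of the mRNA, that of Fdft1 closed with an A after its T run, and the Lss tail held a G before its last bases. Sequences as short as these recur across genes. The 12-nt sequence of Hmgcs1, for example, was found 120 times among nuclear tails.

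As a group, the enzymes had shorter tails than the typical gene. The tail of a gene was taken as the geometric mean over its transcripts. The median of the 8 enzymes was 67.0 nt, against 76.4 nt for all tested genes, whose quartiles were 62.4 nt and 88.6 nt. In replicate 1 it was 63.5 nt over 7 enzymes against 78.0 nt, and in replicate 2 it was 69.3 nt over 8 enzymes against 76.8 nt. The difference was -11.0 nt ± 5.00 (SD, n = 2), the same direction in both replicates. Of the 8 enzymes, 7 lay below the median of all tested genes, where 50.0% of those genes lie by definition. Fdft1, counted among the 7, was only just below it, at 76.1 nt. Among 7 enzymes with at least 10 transcripts in each replicate, 5 (Hmgcs1, Idi1, Sqle, Lss and Cyp51) were below the median of each replicate, against 33.4% of such genes. Mvd alone was above it in each, against 35.7% of such genes, and Fdft1 changed sides. With 1 group and 2 replicates no test was made. With the arithmetic mean per gene, the pooled difference was -5.59 nt in place of -9.41 nt. Single genes are imprecise here, since the replicates of a gene differed by a median of 10.4 nt over 4286 genes.

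**Figure D1:**
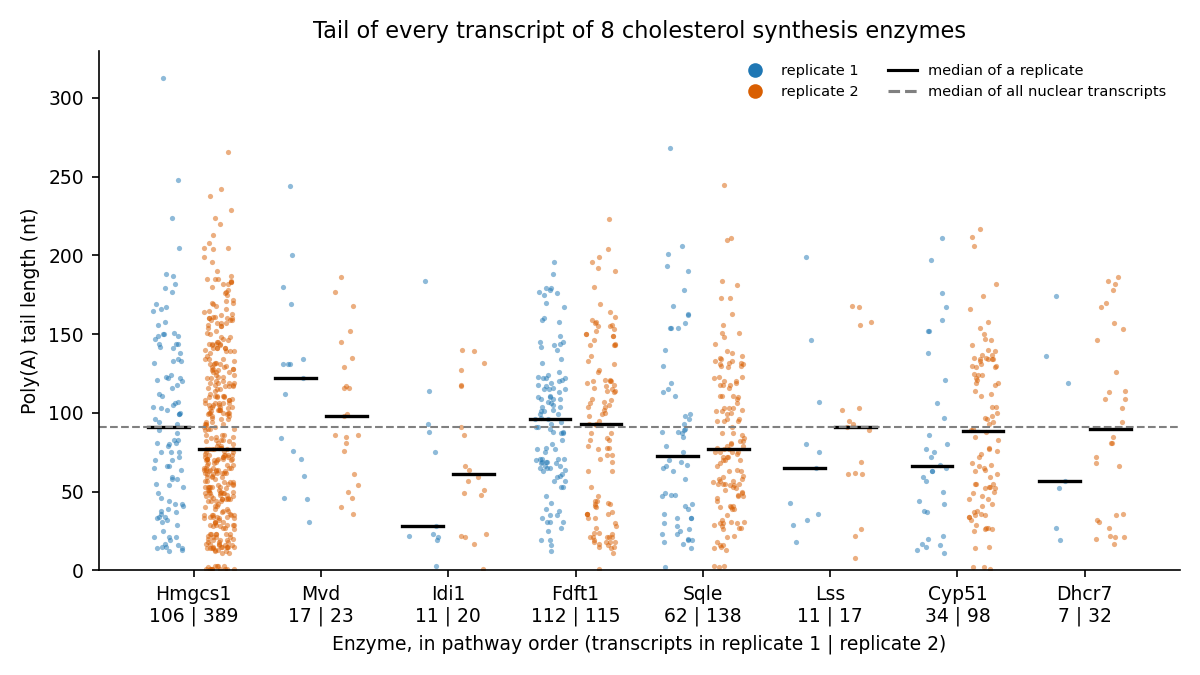
Tail length in nt (vertical axis) of every transcript of the 8 measured enzymes, in pathway order, with replicate 1 in blue on the left and replicate 2 in orange on the right of each pair; black bars are medians of a replicate and the dashed line is the median of all nuclear transcripts, 91 nt. Tails of each well-covered enzyme ran from a few nt to over 200 nt, and Mvd had none under 31 nt.

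Hmgcs1 (ENSMUSG00000093930 in the table, GRCm38 chromosome 13, 119690379 to 119708260, plus strand) joins acetyl-CoA and acetoacetyl-CoA into HMG-CoA. It gave 106 transcripts in replicate 1 and 389 in replicate 2, the most of the 8. In replicate 1 its gene tail came to 74.99 nt and in replicate 2 to 63.1 nt, with a pooled value of 65.5 nt that ranked at percentile 29.6 of the tested genes. The middle of its tails ran from 45 to 128.5 nt and the longest had 313 nt. All 14 of its tails of 1 to 5 nt were in replicate 2, the replicate with the shorter value.

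Mvd (ENSMUSG00000006517, chromosome 8, 122433601 to 122443422, minus strand) decarboxylates mevalonate diphosphate to isopentenyl diphosphate, the basic isoprenoid unit. Its gene tail was the longest of the 8, with 100.4 nt over 17 transcripts in replicate 1 and 91.7 nt over 23 in replicate 2. Pooled, it was 95.3 nt, at percentile 84.7. Its shortest tail had 31 nt, and 55% of its tails were over 90 nt.

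Idi1 (ENSMUSG00000058258, chromosome 13, 8885501 to 8892451, plus strand) turns isopentenyl diphosphate into its reactive isomer. Its gene tail was the shortest of the 8, with 37.7 nt over 11 transcripts in replicate 1, 50.3 nt over 20 in replicate 2 and 45.4 nt pooled, at percentile 8.83. Tails of 6 to 30 nt made up 9 of its 31. Its value was 63.9 nt in reads with at least 15 passes and 56.9 nt over tails of at least 6 nt, so its size rests on few molecules.

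Fdft1 (ENSMUSG00000021273, chromosome 14, 63145150 to 63179578, minus strand) joins farnesyl units into squalene, the first step committed to sterols. Its gene tail was 84.1 nt over 112 transcripts in replicate 1, above the median of all genes, and 69.0 nt over 115 in replicate 2, below it. The pooled value of 76.1 nt was at percentile 49.4. Of its exons, 774 nt lie on the other strand of exons of Ctsb, including all 300 nt nearest its 3′ end, and Ctsb had 78 transcripts. Whether reads were moved between them was not tested.

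Sqle (ENSMUSG00000022351, chromosome 15, 59315077 to 59331192, plus strand) adds oxygen to squalene and is known as a control point of the pathway. Its values were the closest of the 8, with 63.5 nt over 62 transcripts in replicate 1 and 67.1 nt over 138 in replicate 2. Its pooled gene tail was 65.9 nt, at percentile 30.5.

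Lss (ENSMUSG00000033105, chromosome 10, 76531588 to 76557138, plus strand) closes oxidosqualene into lanosterol. It had 59.2 nt over 11 transcripts in replicate 1, 72.0 nt over 17 in replicate 2 and 66.7 nt pooled. No Lss tail was of 1 to 5 nt, and the longest had 199 nt. Cyp51 (ENSMUSG00000001467, chromosome 5, 4081145 to 4104746, minus strand) removes a methyl group from lanosterol. Its gene tail was 60.7 nt over 34 transcripts in replicate 1, 69.7 nt over 98 in replicate 2 and 67.2 nt pooled. The last 166 nt of Cyp51 exons lie opposite exons of Akap9, which had 18 transcripts.

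Dhcr7 (ENSMUSG00000058454, chromosome 7, 143823145 to 143848410, plus strand) carries out a final reduction to cholesterol. It was thin in replicate 1, with 7 transcripts at 63.8 nt, and had 72.9 nt over 32 transcripts in replicate 2. The pooled gene tail was 71.2 nt, at percentile 40.1. Its tails were spread widely, with quartiles of 33.5 nt and 141 nt.

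Ordered by pooled gene tail, the enzymes were Idi1, Hmgcs1, Sqle, Lss, Cyp51, Dhcr7, Fdft1 and Mvd. The replicate values of Idi1 lay below those of every other enzyme and those of Mvd lay above. The 6 in between, from 65.5 to 76.1 nt, had overlapping replicate values between neighbours and could not be put in order. The lowest place of Idi1 did not hold in reads with at least 15 passes, where Idi1 had 63.9 nt and Lss 61.3 nt.

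Fdps (ENSMUSG00000059743), which makes farnesyl diphosphate and stands at the branch to ubiquinone, dolichol and protein prenylation, was assigned no read at any number of passes. A count of 0 allows a share of nuclear transcripts of up to 0.00122% (replicate 1) and 0.000658% (replicate 2), for counting error only. Of its exons, 1124 nt are shared on the same strand with Gm43738, an annotated coding gene that also had 0 transcripts. A processed pseudogene, Gm3571 (GRCm38 chromosome 10, 93778660 to 93779719), matches Fdps at 98.9% of bases over 1062 nt and held 64 transcripts, 21 in replicate 1 and 43 in replicate 2. Their gene tail was 98.9 nt. Because the table keeps no mapping positions, it cannot be told which of these genes the molecules came from, and the absence of Fdps from the table is not a measurement of its expression.

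The remaining enzymes of the pathway were set beside the 8. Of 12 listed, 10 had at least 10 transcripts, and their median gene tail was 79.6 nt, 3.21 nt above that of all tested genes. By replicate, the median was 73.5 nt and 84.9 nt, on either side of the median of all genes. Of the 10, 3 were below the pooled median and 7 above. Msmo1, which demethylates sterols, had 62.1 nt and was below the median in each replicate, with 70.5 nt and 58.1 nt. Pmvk, the kinase just before Mvd, had 93.8 nt, with 90.02 nt and 96.6 nt in the replicates, close to the 95.3 nt of Mvd. Acat2, which makes acetoacetyl-CoA, had 80.3 nt and was with Pmvk above the median in each replicate. Lbr, a sterol reductase that is also a receptor for lamin B, had 73.5 nt in replicate 1 and 88.9 nt in replicate 2. Over all 18 measured enzymes the median was 73.6 nt, a difference of -2.74 nt from all tested genes, and it lay below the median of all genes in each replicate (72.0 nt in both).

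**Figure D2:**
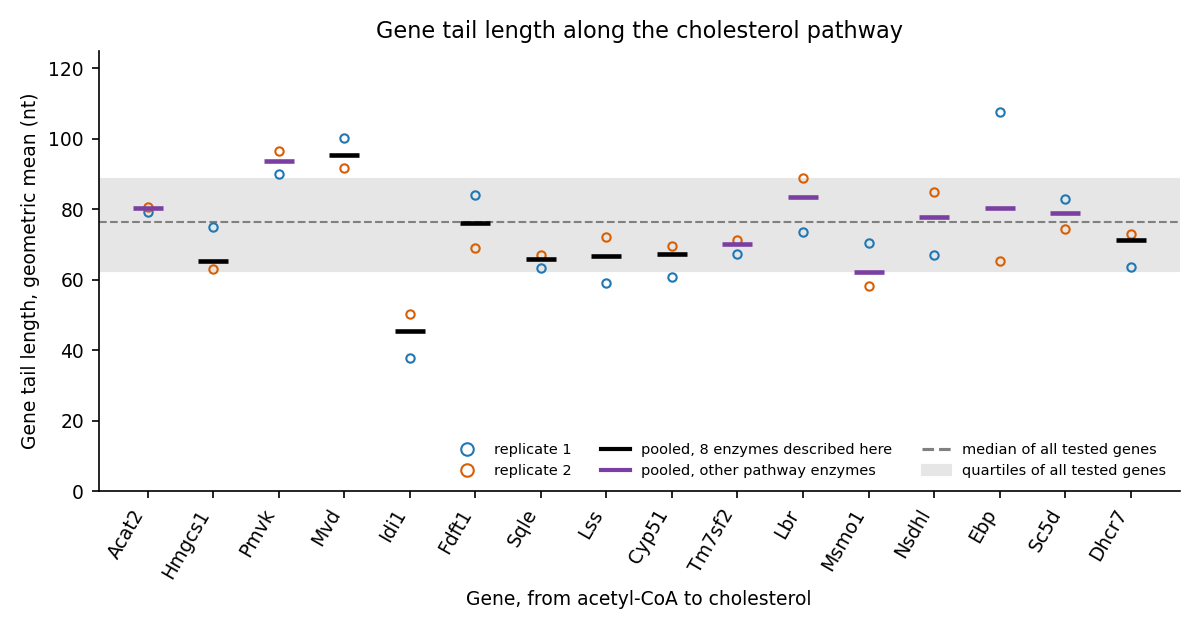
Gene tail length in nt (vertical axis, geometric mean over transcripts) of 16 pathway enzymes in pathway order; circles are the replicates, bars the pooled values of the 8 enzymes (black) and of the other enzymes (purple), the dashed line the median of all tested genes and the grey band their quartiles. Pmvk and Mvd stand at 93.8 nt and 95.3 nt, and Idi1 at 45.4 nt.

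Glycolysis served as a second metabolic pathway. The median over its 16 tested genes was 95.1 nt, with 12 above and 4 below the median of all genes, and 18.0 nt and 17.3 nt above it in the replicates. The median of the listed cholesterol enzymes was thus below that of all genes in both replicates, and the median of the glycolytic genes above it. Coding genes whose longest coding transcript was within the range of the 8 enzymes, 1756 to 4667 nt, had a median of 75.2 nt, so that restricting the background to such lengths moved it little.

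The lengths of single transcripts were then compared by class. Tails over 90 nt made up 46.0% of enzyme transcripts (Wilson 95% interval 43.2% to 48.8%), with 46.4% and 45.8% in the replicates, against 50.6% of all nuclear transcripts. Tails of 1 to 5 nt were 0.556% in replicate 1 and 2.64% in replicate 2, and all nuclear transcripts differed between replicates in the same way (1.52% and 2.75%). Between these limits, tails of 6 to 30 nt, a class chosen after the values were seen, made up 13.3% of enzyme transcripts in each replicate, with intervals of 10.2% to 17.2% and 11.2% to 15.8%. All nuclear transcripts had 8.62% and 8.05%. Without Hmgcs1, which gave 495 of the 1192 transcripts, the enzymes had 13.4% and 13.3%. Intervals cover counting error only, since the reads carry no molecular identifiers. Tails of up to 10 nt were 0.556% and 2.76% of enzyme transcripts in the replicates, so almost none lay just above 5 nt. The authors describe leaving out reads with no tail and tails with too few A among their first bases. Whether this had a part in these classes was not tested.

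By gene, the share of tails of 6 to 30 nt ranged from 0 of 40 in Mvd, which allows up to 8.76%, to 9 of 31 in Idi1 (29.0%, 16.1% to 46.6%). Hmgcs1 had 13.3%, Fdft1 12.3%, Lss 17.9%, Cyp51 11.4% and Dhcr7 20.5%, and Sqle had 28 of 200. The other pathway enzymes together had 10.9%. Glycolytic genes had 2.26%.

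**Figure D3:**
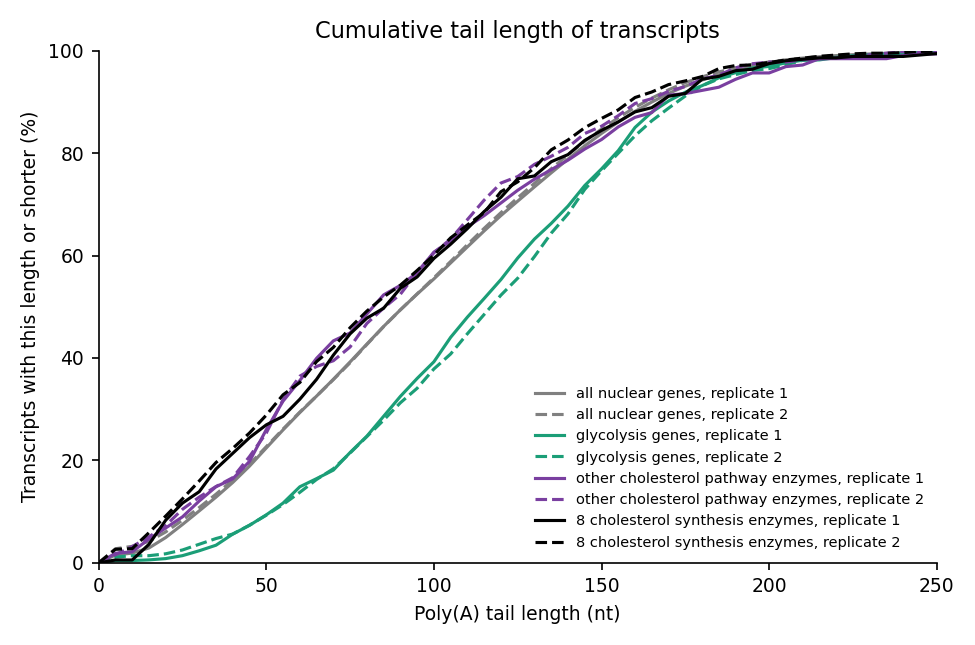
Share of transcripts in percent (vertical axis) with a tail of the given length in nt or shorter (horizontal axis), for replicate 1 (solid) and replicate 2 (dashed). The curves of the 8 enzymes lie above those of all nuclear genes over most lengths below the median, with 13.3% of tails at 6 to 30 nt against 8.25% of all nuclear tails, and glycolysis genes lie below both.

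Tails that end in T were then counted, since uridylation is known to precede decay. Among the enzymes, 50 of 1192 tails ended in T, or 4.19% (3.20% to 5.49%), against 3.06% of all nuclear tails. The replicates went in opposite directions, with 3.33% for the enzymes against 3.93% for all in replicate 1, and 4.57% against 2.58% in replicate 2. Of the 50 tails, 37 ended in 1 T, 8 in 2 and 5 in 3, and 30 were no longer than 40 nt. Tails of 16 to 30 nt ended in T in 13.2% of cases, both for the enzymes and for all nuclear transcripts.

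Dhcr7 stood out among them, and was singled out after its values were seen. It had 9 tails ending in T among 39, or 23.1% (12.6% to 38.3%), 2 of 7 in replicate 1 and 7 of 32 in replicate 2. Across 4157 genes with at least 30 transcripts the median share was 2.84% and the 99th percentile 14.3%, and 0.168% of these genes had a share as high as that of Dhcr7. These genes are not of like depth, and shares scatter more at low counts. Dhcr7, with 39 transcripts, was near the minimum, and its interval began below that 99th percentile. Of its 9 tails, 7 were 21 to 36 nt long and 2 were long, with 167 nt and 174 nt. Its tails of 16 to 40 nt, a range that holds all 7 of these shorter tails, numbered 12, with 2 in replicate 1. Of the 12, 58.3% (32.0% to 80.7%) ended in T, against 9.33% of all nuclear tails of that length. This contrast uses the same reads for which Dhcr7 was singled out, so it adds no separate support. Every non-A base of Dhcr7 tails was in these 9 tails. The other enzymes ranged from 4 of 227 tails in Fdft1 (1.76%) to 3 of 28 in Lss (10.7%), and without Dhcr7 the enzymes had 3.56%.

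**Figure D4:**
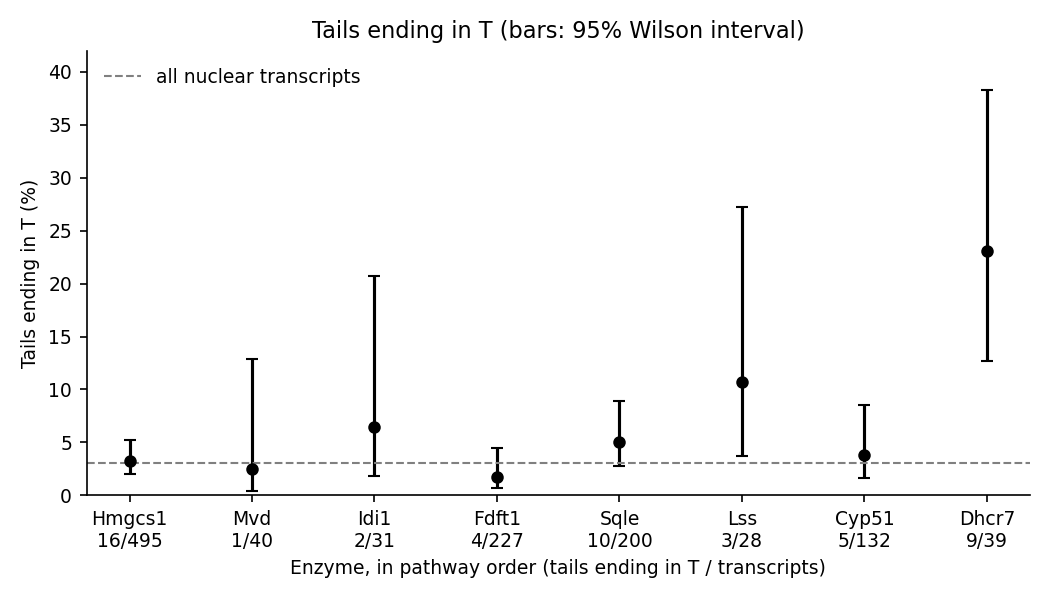
Share of tails ending in T, in percent (vertical axis), for the 8 enzymes with both replicates pooled; bars are 95% Wilson intervals and the dashed line is the share of all nuclear transcripts, 3.06%. The interval of Dhcr7, 12.6% to 38.3%, and those of Idi1, Lss and Mvd are wide because these genes have 28 to 40 transcripts.

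Bases other than A anywhere in the tail were found in 11.6% of enzyme tails (9.88% to 13.5%), with 11.1% and 11.8% in the replicates. All nuclear tails had 10.5%, with 12.2% and 9.55% in the replicates. The enzymes were thus lower in replicate 1 and higher in replicate 2, where their interval of 9.76% to 14.1% lay above the nuclear share, and this difference was not tested. T was the most frequent, in 6.88% of enzyme tails, followed by C in 3.36% and G in 2.68%. Lss, singled out after its values were seen, had 9 tails with such a base among 28 (32.1%, 17.9% to 50.7%), of which 3 ended in T. Its share was not ranked among all genes here.

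The abundance of the enzymes was compared between the replicates as the share of nuclear transcripts. Each count is of a whole transcript, and whether transcripts of different length were read equally well was not tested. Genes are therefore not compared with each other. In such bulk RNA, fewer cells that express a gene and less of its RNA per cell cannot be told apart. Hmgcs1 took 4.303 of every 10000 nuclear transcripts (3.56 to 5.20) in replicate 1, and 8.54 (7.73 to 9.43) in replicate 2, a ratio of 1.98. Fdft1 went the other way, from 4.55 (3.78 to 5.47) to 2.52 (2.10 to 3.03), a ratio of 0.555. The intervals of these 2 enzymes did not overlap. Across all tested genes, 4.80% were higher in replicate 2 with intervals apart, as Hmgcs1 was, and 6.30% were lower, as Fdft1 was. Both enzymes had more transcripts than most tested genes, and intervals come apart more easily at high counts. These percentages are thus not for genes of like depth. Over 1517 genes with at least 100 transcripts, the ratio of replicate 2 to replicate 1 ran from 0.517 at the 5th percentile to 1.86 at the 95th. Sqle had 2.52 and 3.03, and the intervals of the 6 remaining enzymes overlapped, as did those of all 10 other pathway enzymes.

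**Figure D5:**
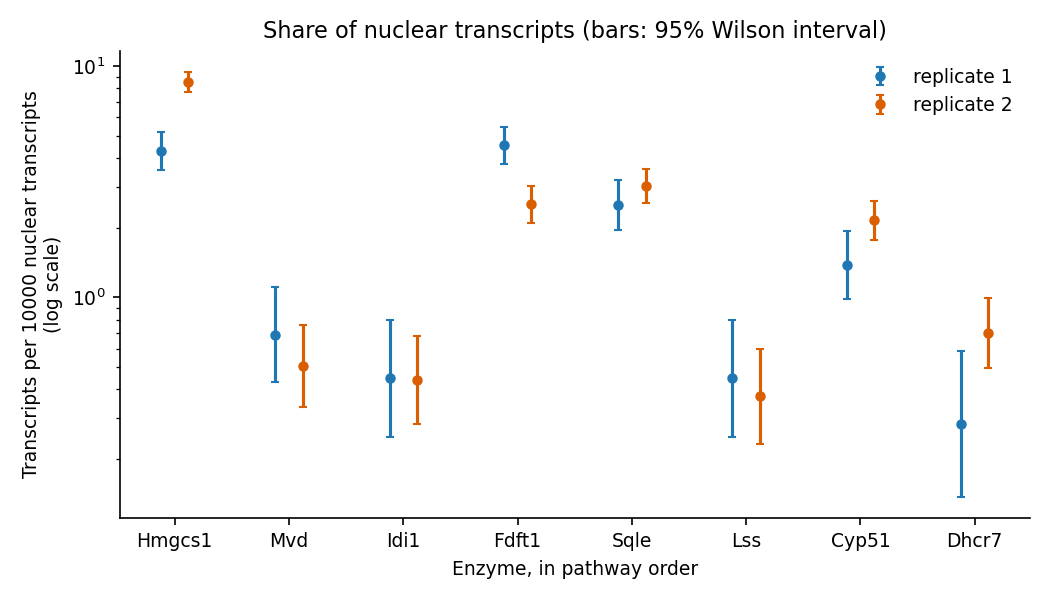
Transcripts per 10000 nuclear transcripts (vertical axis, log scale) of the 8 enzymes in replicate 1 (blue) and replicate 2 (orange), with 95% Wilson intervals. Hmgcs1 was higher in replicate 2 and Fdft1 lower, with intervals apart, while the intervals of the other 6 overlap.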

How the data were processed

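PAIso-seq was performed on wild-type 24h-EpiLCs, with 2 barcoded replicates in 1 sample. The authors made circular consensus reads, split them by barcode, mapped them to mm10 with minimap2 2.17, removed repetitive reads, took the soft-clipped 3′ bases as the tail and assigned genes with featureCounts 2.0.1. They also describe leaving out reads with no tail and tails with too few A among their first bases. Their deposited table gives, per read, the barcode, gene, passes, base counts and sequence of the tail, with no normalization. How reads of overlapping or near-identical genes were split is not given in the sources used here.

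Reads with at least 7 passes were kept, and GENCODE vM21 (GRCm38) gave symbols and positions. Tail length was the number of all tail bases. Gene tails were geometric means, for nuclear genes with at least 10 transcripts. Replicate 1 held 246316 and replicate 2 held 455660 nuclear transcripts, so 3 reads were 0.00122% and 0.000658%. Wilson 95% intervals cover counting error. With 1 group, no test was made, and lists are described by counts and medians. Pseudogenes were matched to the enzymes with blastn 2.17.0 (at least 85% identity over at least 300 nt). The calculation of gene tails was tested on simulated tails. All 9 enzymes, every gene of the related lists with enough transcripts, and tails chosen by a length rule could be named, except some that are not reported here. The members and lists were chosen with earlier results of these data known. Alternatives changed passes, tail definition, summary, transcript minimum, background and replicates. The work was run in Python 3.11.15 with matplotlib 3.10.9, scipy 1.17.1, pandas 2.3.3 and numpy 2.4.6.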

Additional observations from a re-analysis of the deposited data

Results flagged for a closer look

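Transcripts were counted on processed pseudogenes that are near-identical to listed enzymes, which are outside the counts of the enzymes. Over both replicates, Gm3571, Gm13502 and Gm6781 had more than the 3 transcripts that a count of 0 allows in a replicate. Only Gm3571 passed this limit in each replicate, since Gm13502 had 3 and Gm6781 had 2 in replicate 1. With no control sample, that limit was the only comparison.

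Gm3571, a copy of Fdps, held 64 transcripts with a gene tail of 98.9 nt, 84.98 nt in replicate 1 and 106 nt in replicate 2. Gm13502 (chromosome 2, 53696121 to 53696804), which is identical to Idi1 over 684 nt, held 13 transcripts, 3 and 10 in the replicates. Its gene tail was 45.8 nt, with 85.4 nt in replicate 1 and 38.0 nt in replicate 2. Idi1 had 45.4 nt, with 37.7 nt and 50.3 nt, so the replicates of these genes differed in opposite directions. Gm6781, which matches Fdft1 at 97.4% of bases, held 8 transcripts, 2 and 6 in the replicates. Its gene tail was 112 nt, with 137 nt in replicate 1 and 105 nt in replicate 2, beside 76.1 nt for Fdft1. In all, 6 pseudogenes of Fdps, 5 of Idi1 and 1 of Fdft1 passed the match, and most had no transcript. None was found for the other 6 enzymes.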

How the results depend on the processing

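The difference between the median of the enzymes and that of all tested genes kept its sign under every alternative, and was -14.5 nt to -7.45 nt with 1 replicate left out. The difference smallest in size was -5.59 nt, with the arithmetic mean per gene, and it was -7.08 nt without a minimum of passes. The number of enzymes above the median of all genes was 1 to 2 with 1 replicate left out. It was 2 without a minimum of passes, with at least 15 passes, with the median per gene, with protein-coding genes only or with coding genes of similar transcript length (chosen after seeing the data), and 3 of 9 with pseudogene reads added to their parent enzymes (also chosen after seeing the data).

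The median gene tail of the enzymes was 72.2 nt over tails of at least 6 nt, 74.4 nt over tails of at least 15 nt, 78.8 nt as the median per gene and 88.2 nt as the arithmetic mean. That of the other pathway enzymes was 91.3 nt with the arithmetic mean. The share of tails over 90 nt was 45.4% without a minimum of passes, 46.5% with at least 15, 46.9% over tails of at least 6 nt and 47.9% over tails of at least 15 nt. Non-A bases were in 10.98% of tails with at least 15 passes and 8.14% without the first and last base. The share of 6 to 30 nt, whose alternatives were all added after seeing the data, was 13.26% without a minimum of passes, 13.28% with at least 8, 12.4% with at least 15, 13.4% by A bases only and 13.6% over tails of at least 6 nt. The causes were not tested, beyond what leaving out short tails or changing the mean does by construction. With both replicates kept, 62 other recomputed summary values moved by less than the replicate SD, which over 2 replicates is itself uncertain. No paired analysis was possible because the sample holds 1 group.

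Depth limits single genes. Idi1, Lss, Mvd and Dhcr7 rest on 28 to 40 transcripts, and Dhcr7 on 7 in replicate 1.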

Other observations

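Genes that act around the pathway were also measured. Of 10 sterol-sensing genes, 7 were tested, with a median gene tail of 72.7 nt, against 76.4 nt for all tested genes, and 6 of the 7 were below that value. Srebf2, the transcription factor that drives the enzymes, had 74.1 nt (86.5 nt and 63.9 nt in the replicates). Insig1, which holds Srebf2 in the endoplasmic reticulum when sterol is plentiful, had 76.5 nt over 127 transcripts. Of 12 genes of cholesterol uptake, transport and storage, 7 were tested, with a median of 68.3 nt and 5 of the 7 below the median of all genes. Its difference from all genes was 8.08 nt over 2 genes in replicate 1 and -7.31 nt over 4 genes in replicate 2, on opposite sides. Its values ran from 20.5 nt in Osbp, with 10 transcripts, to 95.2 nt. Npc2, a lysosomal cholesterol carrier, had the highest value, with 93.0 nt and 96.3 nt in the replicates.

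The isoprenoid branch, which leaves the pathway after farnesyl diphosphate, had 8 tested genes of 10, with a median of 57.9 nt, 5 below and 3 above the median of all genes. Its difference from all genes was -14.3 nt over 3 genes in replicate 1 and -20.3 nt over 8 genes in replicate 2. Its genes ranged from 33.9 nt in Ggps1, which makes geranylgeranyl diphosphate, to 104 nt in Pggt1b, a subunit of a prenyltransferase, both with under 10 transcripts in replicate 1. Fnta, a subunit of farnesyltransferase, had 59.3 nt in replicate 1 and 59.4 nt in replicate 2 over 147 transcripts. Fatty acid synthesis, with 15 of 16 genes tested, had a median of 78.2 nt, with 9 above and 6 below the median of all genes. Fasn, the fatty acid synthase, had 106.1 nt over 150 transcripts.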
